A study of Mus musculus with 4 samples.

Results

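The genes of the mouse major histocompatibility complex (MHC) class I and class II pathways were described across the cell types of the stromal vascular fraction of inguinal fat, in cold and at room temperature. Members were every gene whose symbol starts with H2- in the deposited gene list, together with B2m, Cd74, Ciita, Nlrc5, Tap1, Tap2, Tapbp, Psmb8 and Psmb9. This gave 43 of 31053 genes. The rule goes by symbol and uses no measured value, but it was chosen with earlier results of these data known. By GENCODE vM21 on GRCm38 (mm10), 39 of the 43 lie on chromosome 17, where the MHC is, and B2m, Nlrc5, Ciita and Cd74 lie on chromosomes 2, 8, 16 and 18. By role, 2 members are classical class I heavy chains and 22 are non-classical class I heavy chains. A further 6 supply class I with its light chain and peptides, 4 are class II chains, 6 are class II chaperones, 2 are transactivators, and 1, H2-Ke6, encodes a hydroxysteroid dehydrogenase and no MHC chain.

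The study sequenced single cells (10x Chromium 3′ v3) from the fourth inguinal fat pad, which in females also holds the mammary ducts, of 8-week-old C57BL/6 mice. Cold-exposed mice spent 24 h at 4 °C (cold, 2 libraries), and the others stayed at room temperature (2 libraries). All 4 libraries share the strain and age, and hold the stromal vascular fraction, the cells that collagenase frees once floating adipocytes are gone. The sex, the number of animals behind a library and the temperature of the room are not stated in the labels. Since the labels do not say that libraries came from separate animals, p-values cover the spread between these libraries alone, which may be technical.

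Each library held 3871 to 6339 cell barcodes and 35198164 to 55160902 UMIs (deduplicated molecules). After filters on genes and mitochondrial share and removal of the highest doublet scores, 15197 cells remained in 44 clusters. Any pair of libraries shared 5 to 10 barcodes. Clusters were named by marker genes, with all 43 members left out of the clustering, and a class name means only that its cells resemble the type. Of these cells, 819 carried markers of more than 1 type and 168 stayed unnamed. The class tests cover 9 classes with at least 20 cells in every library. A gene said to be highest in a class is highest among these 9, unless an untested class is named. Levels are CPM, the usual depth-scaled counts, here the UMIs of a gene over all UMIs of its class in the library. A 3′ UMI counts a molecule once whatever its length, so no length was divided out. Changes are log2 ratios, cold over room temperature, fitted by edgeR (quasi-likelihood), and p-values were adjusted by Benjamini-Hochberg over every gene tested in the class.

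Class I molecules are made by nearly all nucleated cells and show peptides of the cell's own proteins to CD8 T cells and natural killer cells. Peptides cut by the proteasome, in which Psmb8 and Psmb9 replace standard subunits, are carried into the endoplasmic reticulum by Tap1 and Tap2, and Tapbp (tapasin) loads them onto a heavy chain bound to B2m. Class II molecules are made mainly by dendritic cells, B cells and macrophages and show peptides of ingested proteins to CD4 T cells. Their chains assemble on the invariant chain Cd74, H2-DM exchanges its remnant for peptide, and H2-DO inhibits H2-DM. Ciita switches on class II genes and Nlrc5 class I genes, through a protein complex that sits on X and Y boxes of their promoters. C57BL/6 mice carry a broken H2-Ea gene, so H2-Eb1 RNA is made without its partner chain.

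Promoter sequences are shown for 4 class II genes and for B2m, to place these boxes beside the levels. Among the 36 members with a promoter sequence at hand, the X box letters were found in H2-Eb1, H2-Eb2 and H2-DMb1. H2-Ab1 and Cd74 had no such sequence and were not searched. The search took a set pattern of letters. A sequence without a match, as in H2-Aa, is thus not shown to lack an X box. H2-Aa and H2-Eb1 passed the test below in a class, and H2-Eb2 and H2-DMb1 in none. The letters are from RefSeq on GRCm38.p6, read 5′ to 3′ on the gene's strand, and each run holds the 150 bases before the start that RefSeq gives. H2-Eb1 is chr17:34305717-34305866, H2-Eb2 is chr17:34325525-34325674 and H2-DMb1 is chr17:34153041-34153190, all on the plus strand. H2-Aa is chr17:34287824-34287973 on the minus strand, and B2m is chr2:122147537-122147686 on the plus strand. Capitals mark the letters of the motifs searched: the Y box CCAAT, which reads ATTGG when it lies on the other strand, the longer X box and, in B2m, the interferon-response element, each searched on both strands and with no overlap between motifs in these 5 runs.
H2-Eb1: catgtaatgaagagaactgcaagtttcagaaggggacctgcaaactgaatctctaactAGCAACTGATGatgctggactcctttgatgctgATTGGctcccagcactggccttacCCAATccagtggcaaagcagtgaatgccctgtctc
H2-Eb2: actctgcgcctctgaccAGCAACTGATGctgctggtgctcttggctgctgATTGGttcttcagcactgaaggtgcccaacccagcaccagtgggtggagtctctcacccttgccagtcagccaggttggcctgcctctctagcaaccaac
H2-DMb1: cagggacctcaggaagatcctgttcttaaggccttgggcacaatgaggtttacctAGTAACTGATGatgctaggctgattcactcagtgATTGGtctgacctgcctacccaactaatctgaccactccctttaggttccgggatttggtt
H2-Aa: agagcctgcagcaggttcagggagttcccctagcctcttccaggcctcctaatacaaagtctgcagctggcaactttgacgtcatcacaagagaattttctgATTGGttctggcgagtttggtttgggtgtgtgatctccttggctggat
B2m: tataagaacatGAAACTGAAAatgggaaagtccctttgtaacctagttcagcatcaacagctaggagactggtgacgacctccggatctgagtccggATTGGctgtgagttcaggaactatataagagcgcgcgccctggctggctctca

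Windows of 300 bases (250 before and 50 after the start) were at hand for 36 of the 43 members, and H2-Ab1, Cd74, Tap2, Ciita, Nlrc5, H2-Q1 and H2-T24 were not matched. The Y box letters stood in 32 of the 36, but also in 37.4% of all 32851 windows. The X box letters stood in H2-DMb1, H2-Eb1 and H2-Eb2, against 0.298% of all windows. In H2-Eb1 the X box covered bases -92 to -82 from the start, and Y boxes stood at bases -59 to -55 and -35 to -31. All 3 genes held both boxes, against 0.107% of all windows. The interferon-response letters stood in B2m, H2-T22 and H2-T23, against 3.44% of all windows. A match, or the lack of one, is a description of these letters only.

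The members fell into a widely detected class I group and a class II group held by few cell types. A mean of at least 50 CPM in a tested class was reached by 28 of the 43 members, and 32 passed the low-count filter in at least 1 class. The 7 members with 0 UMIs in all libraries were H2-M1 and the 6 H2-M10 genes, known from sensory neurons of the vomeronasal organ. A further 4 members had 4 to 16 UMIs in all.

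Dendritic cells held the highest class II levels. H2-Aa (chr17:34282744-34287823), the alpha chain, stood at 11356 and 8962 CPM in cold, against 11401 and 10559 CPM at room temperature. H2-Ab1 (chr17:34257689-34269419), its beta chain, stood at 11116 and 8181 CPM in cold, against 11159.9 and 10029 CPM at room temperature. H2-Eb1 (chr17:34305867-34316674), the second beta chain, stood at 10166 and 7649 CPM in cold, against 9307 and 8508 CPM at room temperature. Cold replicate 2 was the lowest library for all 3 chains. Cd74 (chromosome 18), the chain that class II assembles on, stood at 26451 and 19253 CPM in cold, against 23918 and 23871 CPM at room temperature, with the groups overlapping. H2-DMa, a chain of the peptide exchanger, stood at 902 and 672 CPM in cold, against 861 and 859 CPM at room temperature. Its usual partner H2-DMb1 stood at 771 and 526 CPM in cold, against 879 and 841 CPM at room temperature, both cold libraries below both room-temperature libraries.

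B cells held the other class II genes at their highest. H2-DMb2, a near-identical copy of H2-DMb1, stood at 552 and 463 CPM in cold, against 544 and 448 CPM at room temperature. In B cells its share of the UMIs of the H2-DMb pair was 73.5 and 77.6% in cold, against 74.8 and 75% at room temperature. In dendritic cells that share was 11.8 and 13.4% in cold, against 8.35 and 12.4% at room temperature, far below B cells in every library. The split between the copies depends on how shared reads were counted, which the labels do not state. H2-Oa, a chain of the H2-DM inhibitor, stood at 333 and 318 CPM in cold, against 273 and 238 CPM at room temperature. Its partner H2-Ob stood at 387 and 419 CPM in cold, against 491 and 349 CPM at room temperature. In B cells the UMIs of H2-Oa per UMI of H2-DMa came to 0.594 and 0.669 in cold, against 0.546 and 0.629 at room temperature. In macrophages the same ratio was 0.00608 and 0.0309 in cold, against 0.00605 and 0.0183 at room temperature, below every B cell value. H2-Eb2, a beta chain with the X and Y boxes shown above, stood at 82.8 and 78.9 CPM in cold, against 67.2 and 48.6 CPM at room temperature, without overlap. H2-Eb1 in the same cells stood far higher at 4234 and 3371 CPM in cold, against 4004 and 3216 CPM at room temperature. Ciita (chr16:10480059-10528418), the class II switch, stood at 329.6 and 324 CPM in cold, against 242 and 185 CPM at room temperature, with both cold libraries above both room-temperature libraries.

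Summed over H2-Aa, H2-Ab1, H2-Eb1 and Cd74, class II stood at 44045 to 59089.6 CPM over the 4 libraries in dendritic cells. B cells at 23069 to 29129 CPM and macrophages at 16769 to 25635 CPM overlapped each other below them, and the untested plasmacytoid dendritic cells at 13167 to 20301 CPM overlapped the macrophages. All other tested classes lay far lower: T cells at 547 to 744 CPM, natural killer cells at 72.1 to 1407, vascular endothelium at 226 to 689, fibroblasts and adipose progenitors at 71.98 to 599, luminal hormone-sensing cells at 33.5 to 439.5 and luminal alveolar progenitors at 59.9 to 365. T cells overlapped neither hormone-sensing cells nor alveolar progenitors. The order is given by each class's own 4 libraries and no test was made between classes for it.

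**Figure D1:**
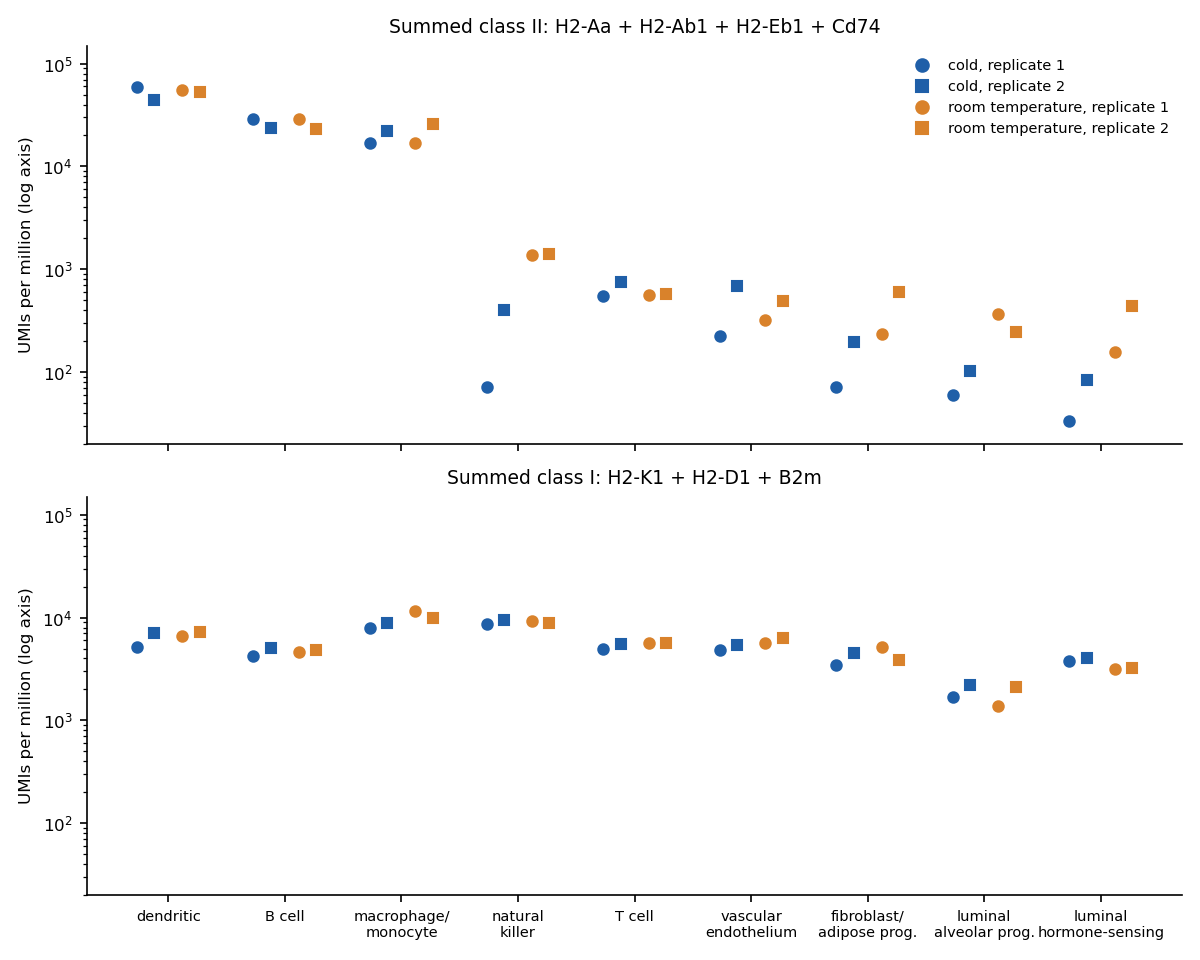
Summed class II UMIs (top) and summed class I UMIs of H2-K1, H2-D1 and B2m (bottom) in CPM of the class on a log axis, with 1 point per library. Class II separates dendritic cells, B cells and macrophages (at least 16769 CPM) from the other 6 classes (at most 1407 CPM), while class I spans a much narrower range.

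Class I was present in every class. H2-K1 (chr17:33996017-34000347), a classical heavy chain, was highest in natural killer cells at 3375 and 3579 CPM in cold, against 3570.4 and 3362 CPM at room temperature. H2-D1 (chr17:35262730-35267499), the other one, was highest in macrophages at 2943 and 3115 CPM in cold, against 3844 and 2842 CPM at room temperature. In macrophages B2m (chr2:122147686-122153083), the shared light chain, stood at 2897 and 3221 CPM in cold, against 4592 and 4182 CPM at room temperature, both cold libraries below both room-temperature libraries. Summed over the 3 genes, class I ran from 7828 to 11661 CPM in macrophages and 8649 to 9432 CPM in natural killer cells to 1383 to 2232 CPM in alveolar progenitors. The classical heavy chains and the H2-Q and H2-T genes resemble each other, so their split is uncertain in the same way as for the H2-DMb pair. Psmb9 and Tap1 overlap at their 5′ ends on opposite strands.

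Peptide supply genes were highest in dendritic cells or close to it. In dendritic cells Psmb8, an immunoproteasome subunit, stood at 442 and 648 CPM in cold, against 653 and 608 CPM at room temperature. Psmb9, its companion, stood at 194 and 362 CPM in cold, against 279 and 265 CPM at room temperature. Tap1, a subunit of the peptide transporter, stood at 132 and 225 CPM in cold, against 185 and 152 CPM at room temperature. In Psmb9 and Tap1 the cold libraries lay on both sides of the room-temperature libraries, and in Psmb8 the groups overlapped. Tap2, the other subunit, was highest in vascular endothelium at 137 and 120.1 CPM in cold, against 129 and 121 CPM at room temperature. Tapbp was highest in macrophages at 219.8 and 195 CPM in cold, against 293 and 353 CPM at room temperature, where the groups did not overlap.

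Non-classical class I genes differed more between cell types. H2-Q7, which encodes Qa-2, was highest among tested classes in natural killer cells at 1044 and 1153 CPM in cold, against 1057 and 1106 CPM at room temperature. The 79 untested plasmacytoid dendritic cells held 1203 CPM over all libraries. In natural killer cells H2-Q6 stood at 261 and 343 CPM in cold, against 339 and 321 CPM at room temperature, and H2-Q4 at 185 and 211 CPM in cold, against 142 and 159 CPM at room temperature. Natural killer cells also held the highest H2-T22, a chain seen by some gamma-delta T cells, at 155 and 153 CPM in cold, against 107 and 189 CPM at room temperature. Of these 4 genes H2-Q4 was higher in both cold libraries and the other 3 overlapped. H2-T23, which encodes Qa-1, a ligand of natural killer receptors, was highest in dendritic cells at 219 and 402 CPM in cold, against 349 and 336 CPM at room temperature. H2-M3, which presents formylated peptides, was highest in macrophages at 78.01 and 90.04 CPM in cold, against 83.4 and 79.5 CPM at room temperature. The groups overlapped in both genes.

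A few members were concentrated in small cell groups. In the dendritic cluster led by Ccl5 and Ccl22 (cluster 34, 84 cells), H2-M2 reached 370.4 and 1022 CPM in cold, against 625 and 1032 CPM at room temperature, where cold replicate 1 held 8 cells. In a macrophage cluster led by Il1b (cluster 32) it reached 357 and 83.3 CPM in cold, against 306 and 443 CPM at room temperature. Over all dendritic cells it stood at 22.5 and 192 CPM in cold, against 48.8 and 167 CPM at room temperature. The groups overlapped in all 3. H2-M9 had 85.2% of its UMIs in vascular endothelium, at 87.9 and 88.3 CPM in cold, against 76.3 and 28.7 CPM at room temperature, both cold libraries above both room-temperature libraries. Within that class it was highest in cluster 28 at 155 and 155 CPM in cold, against 186 and 142 CPM at room temperature, where the groups overlapped. The 45 pericytes had 248 CPM over all libraries. Chosen after their values were seen, H2-Q10, known as a secreted liver product, was highest in the 95 neutrophils at 742 and 405 CPM in cold, against 327 and 816 CPM at room temperature, and H2-Q2 had 86.6% of its UMIs in luminal hormone-sensing cells. In natural killer cells, its highest class, H2-Ke6 stood at 96.1 and 70.9 CPM in cold, against 49.9 and 62.1 CPM at room temperature, without overlap.

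**Figure D2:**
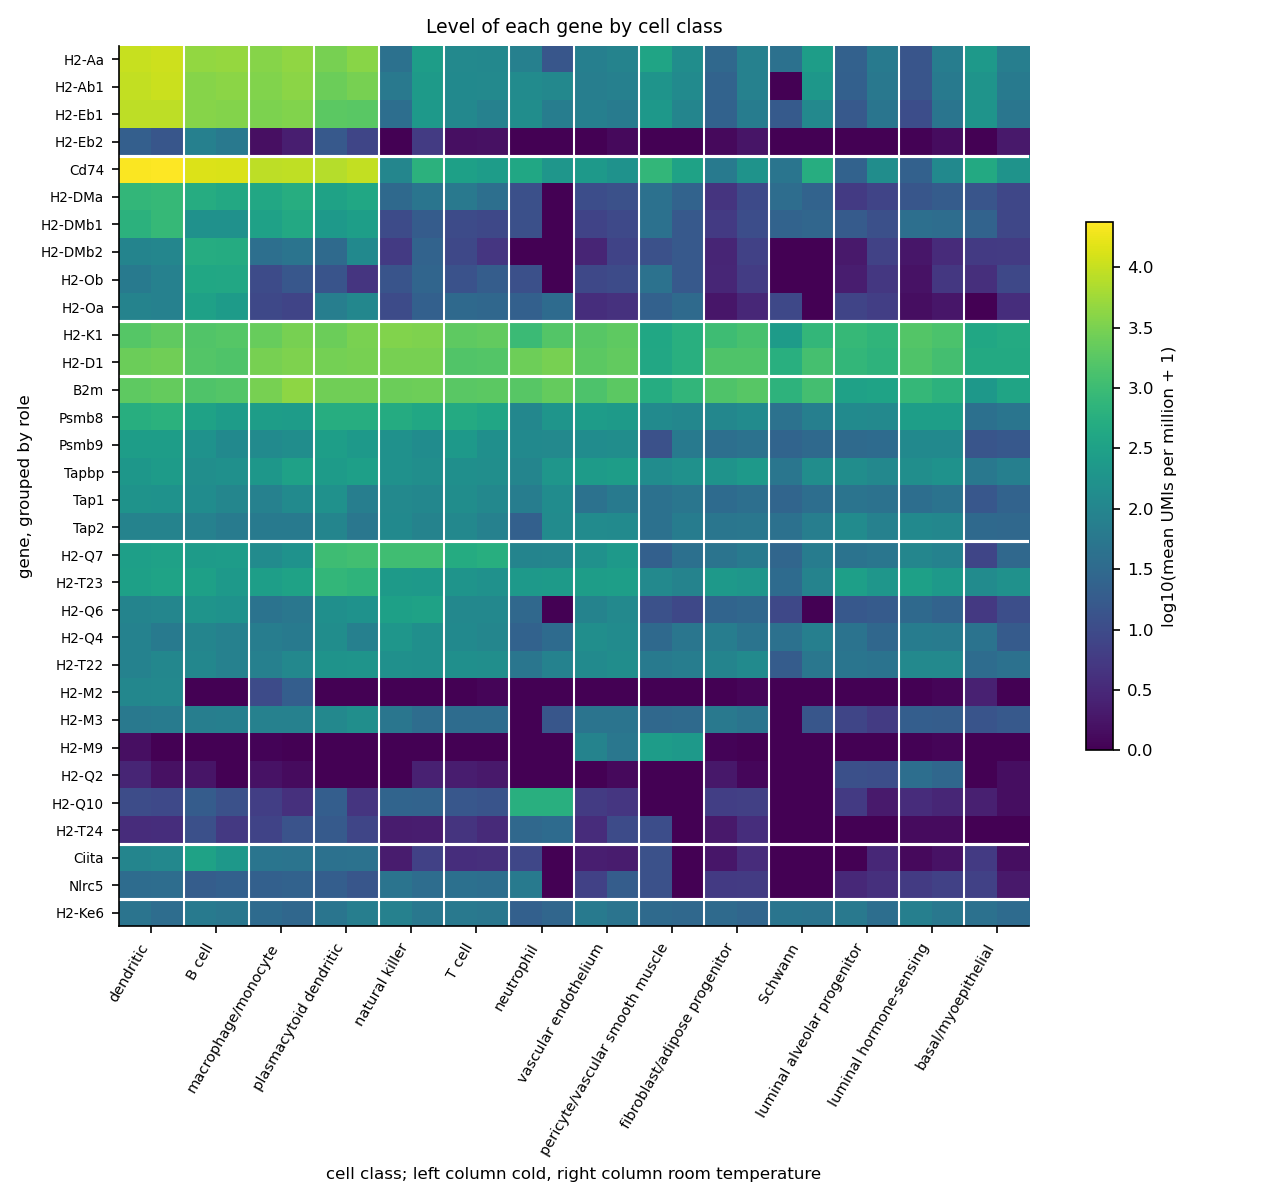
Mean level of 32 members in 14 cell classes, as log10 of CPM plus 1, with the cold mean in the left column and the room-temperature mean in the right column of each class. Rows are grouped by role. The 3 main class II chains and Cd74 are brightest in dendritic cells, B cells, macrophages and plasmacytoid dendritic cells. H2-K1, H2-D1 and B2m are bright throughout, and H2-M9, H2-M2 and H2-Q10 each stand out in 1 or 2 classes.

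Cold was set against room temperature within each class. Members passed the test in 2 of 9 classes, natural killer cells and luminal alveolar progenitors, where the 3 class II chains and Cd74 were lower in cold at levels of 0.341% to 1.61% of the dendritic mean. No member rose in any class.

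Dendritic cells, the main cells that present to naive T cells, held no member past the test. Of 29 members in the test, 0 passed with edgeR, 0 had an unadjusted p under 0.05 and DESeq2 called 0, while 0.0731% of all genes were called lower in cold and 0.171% higher, 0.244% in all. The median log2 fold change of the members was -0.11, against 0.0039 over all genes tested. Lower in both cold libraries were 3 members (background 20.2%), H2-DMb1, H2-Ob and H2-D1, and higher 2 (background 19.8%), H2-Ke6 and H2-Q4. Summed class II stood at 59089.6 and 44045 CPM in cold, against 55786 and 52967 CPM at room temperature. Summed class I stood at 5228 and 7139 CPM in cold, against 6655 and 7235 CPM at room temperature. Single libraries moved these results. Without cold replicate 1, Cd74, H2-Aa, H2-Ab1 and H2-DMb1 were called, and without cold replicate 2, B2m, H2-K1, H2-M2 and H2-Q7, all lower in cold. Each of these fits leaves a single cold library and called a larger share of all genes. The share of cluster 15, the cluster highest in class II (below), was 48.05 and 20.5% of dendritic cells in cold, against 56.25 and 48.04% at room temperature. Its part in these calls was not tested.

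In macrophages and monocytes no member passed with edgeR. Tapbp had the smallest adjusted p (log2 change -0.65, SE 0.15, adjusted p = 0.167, edgeR, values above). Tap1 stood at 71.96 and 93.2 CPM in cold, against 113 and 130.4 CPM at room temperature (log2 change -0.58, SE 0.16, adjusted p = 0.245). B2m had a log2 fold change of -0.53 (SE 0.17, adjusted p = 0.299, edgeR, values above). In these 3 genes both cold libraries lay below both room-temperature libraries. Of 29 members tested, 7 had an unadjusted p under 0.05, and DESeq2 called 2, B2m and Tapbp, both lower in cold, where it called 2.61% of all genes. The background was 0.298% called lower, 0.127% higher and 0.425% in all. The members' median was -0.22, against 0.01 over all genes. Without overlap, 10 members were lower in cold (background 20.4%) and 3 higher (background 23.2%). Without room-temperature replicate 1, edgeR called H2-DMb1, H2-DMb2, H2-M2, H2-T24, Tap1 and Tapbp lower in cold, in a fit that also called a larger share of all genes.

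Class II of macrophages overlapped between the groups. Summed class II stood at 16993 and 22072 CPM in cold, against 16769 and 25635 CPM at room temperature, with the groups overlapping (log2 ratio of means -0.12). Summed class I stood at 7828 and 8863 CPM in cold, against 11661 and 9865 CPM at room temperature, without overlap (log2 ratio of means -0.37). Class II UMIs per class I UMI came to 2.17 and 2.49 in cold, against 1.44 and 2.599 at room temperature, and room-temperature replicate 1 was the lowest of the 4. An exact permutation test of such a sum over 2 against 2 libraries cannot go below p = 0.333. Ciita stood at 38.5 and 62.01 CPM in cold, against 48.2 and 45.4 CPM at room temperature, with overlap.

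In B cells 9 of 28 members were higher in both cold libraries and 0 lower, where the background over all genes was 15.2% higher and 21.2% lower. None passed with edgeR (background 0.0152% called higher and 0.0304% in either direction), 3 had an unadjusted p under 0.05, and DESeq2 called 0. Ciita, with the values above, had the smallest unadjusted p (log2 change 0.66, SE 0.21, adjusted p = 0.499, edgeR). Psmb9 stood at 147 and 198 CPM in cold, against 108 and 128 CPM at room temperature (log2 change 0.61, SE 0.20, adjusted p = 0.504, edgeR). H2-T23 stood at 259 and 349 CPM in cold, against 235 and 216 CPM at room temperature (log2 change 0.47). All 3 were higher in both cold libraries. Summed class II stood at 29129 and 23619 CPM in cold, against 28942 and 23069 CPM at room temperature, with overlap. Without cold replicate 2, edgeR called Cd74 and Ciita higher in cold, in a fit that also called a larger share of all genes.

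The difference in cold effect between these classes was tested as an interaction. Between macrophages and B cells 0 of 30 members passed with edgeR, 7 had an unadjusted p under 0.05 and DESeq2 called 0 (background 0.00967% of all genes). Between macrophages and dendritic cells 0 of 30 passed, 1 had an unadjusted p under 0.05 and DESeq2 called 0 (background 0.0289%).

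Within dendritic cells and macrophages, class II levels differed widely between clusters, from which the members had been left out. Among dendritic cells, cluster 15 (Cd209a, Il1b) stood at 81058 and 68825 CPM in cold, against 72457 and 73838 CPM at room temperature. Cluster 16 (Plbd1, Cd209a) stood at 45873 and 45109 CPM in cold, against 42897 and 47429 CPM at room temperature. It also carried 8 T cell markers, whose mean log2 excess over the median cluster (2.43) was below that of its dendritic markers (4.77). Its median depth was 10858 UMIs per cell, against 7305.5 in cluster 15, and whether it holds doublets was not tested. Cluster 34 (Ccl5, Ccl22, Fscn1) stood lower at 24340.3 and 16714 CPM in cold, against 25937 and 17641 CPM at room temperature, and its class I stood at 9588 and 14628 CPM in cold, against 12956 and 13678 CPM at room temperature, the highest of the 3 clusters. In all 3 the cold and room-temperature libraries overlapped.

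Among macrophages, cluster 32 (Il1b, C1qb) stood at 60214 and 56701 CPM in cold, against 65379.7 and 78822 CPM at room temperature, with both cold libraries lower. Cluster 6 (Lyz1, Ear2, Retnla) stood at 37144 and 37304 CPM in cold, against 39536 and 38974 CPM at room temperature, again with both cold libraries lower, by a small margin. Cluster 1 (C1qa, C1qb, C1qc, Pf4), the largest, stood at 6901 and 9701 CPM in cold, against 6768 and 9017 CPM at room temperature, with overlap. Its share of the macrophages was 54.1 and 44.97% in cold, against 52.98 and 22.9% at room temperature. Its class I stood at 8987 and 11064 CPM in cold, against 13492 and 11019 CPM at room temperature. Cluster 25 (Chil3, Lyz2) was the most uneven at 4174 and 11624 CPM in cold, against 23871 and 9645 CPM at room temperature, with 17 and 27 cells in cold and 51 and 69 at room temperature. Cluster 17, led by the same 4 genes as cluster 1, was mostly 1 library, with 182 of its 245 cells in room-temperature replicate 2. Its share of the macrophages was 1.89 and 5.56% in cold, against 2.06 and 19.8% at room temperature. Its class II stood at 5607 and 11398 CPM in cold, against 5901 and 7377 CPM at room temperature, with overlap.

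**Figure D3:**
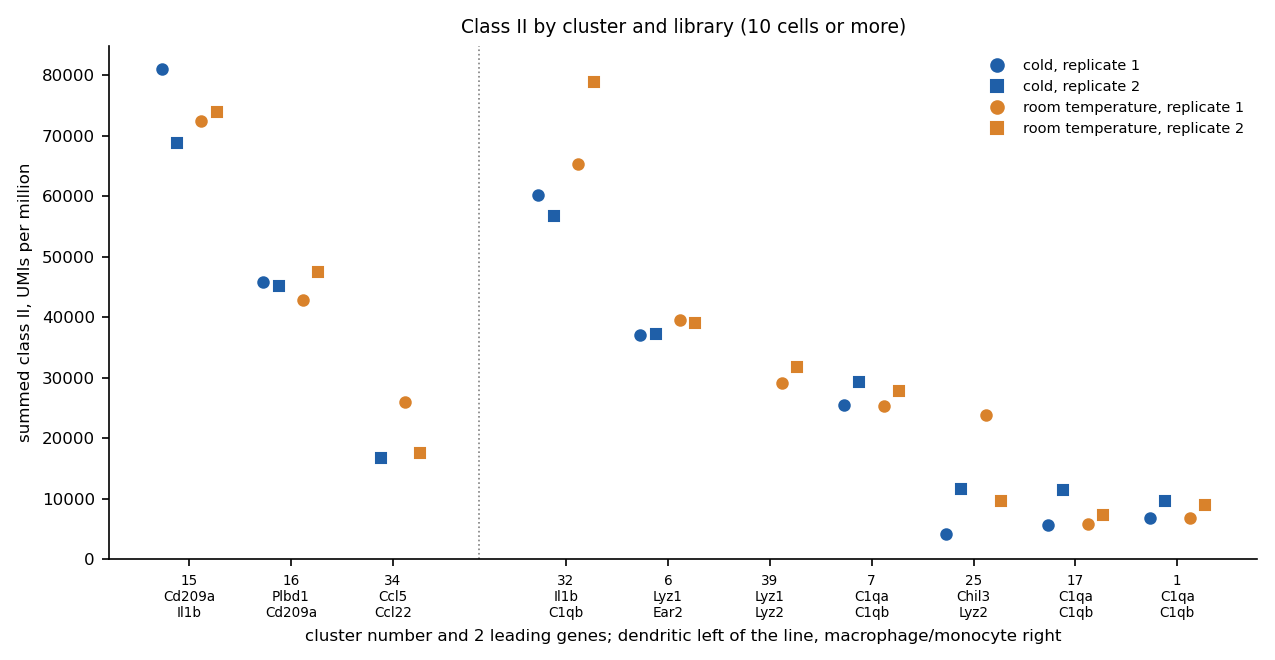
Summed class II in CPM in the 3 dendritic clusters (left of the dotted line) and 7 macrophage/monocyte clusters (right), with 1 point per library of at least 10 cells. Cluster 15 lies highest among dendritic clusters (73943 CPM over all its cells) and cluster 1 lowest among macrophages (7383 CPM), and in clusters 15, 16, 7, 25, 17 and 1 the cold and room-temperature points overlap.

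A thinning of each cell to 2000 UMIs gave levels per cell at 1 depth. The median class II count per thinned dendritic cell was 120 and 101.5 UMIs in cold, against 115.5 and 112 UMIs at room temperature. Per B cell it was 58 and 56 UMIs in cold, against 58 and 51 UMIs at room temperature. Per macrophage it was 13 and 22 UMIs in cold, against 15 and 28 UMIs at room temperature, where the lower quartile was 2 to 5 UMIs and the upper quartile 57 to 70 UMIs. For class I the median per thinned macrophage was 15 and 18 UMIs in cold, against 22 and 19 UMIs at room temperature, both cold libraries lower. Left out as shallower were 58 and 37 macrophages in cold and 211 and 136 at room temperature.

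Over the whole fraction, class II lay lower in cold. Summed class II stood at 3412 and 4627 CPM in cold, against 6209.9 and 9181 CPM at room temperature, both cold libraries below both room-temperature libraries (log2 ratio of means -0.94). Cd74 stood at 1582 and 2107 CPM in cold, against 2768 and 4085 CPM at room temperature (log2 change -0.89, SE 0.23, adjusted p = 0.140, edgeR). Summed class I stood at 4294 and 4879 CPM in cold, against 5634 and 5243 CPM at room temperature (log2 ratio -0.25). In such a sum, fewer cells of a type and less RNA per cell cannot be told apart. None of 32 members passed with edgeR (background 0% called), 14 had an unadjusted p under 0.05, and DESeq2 called 10, 8 lower and 2 higher, where it called 9.10% of all genes. Among the 8 were Cd74, H2-Aa, H2-Ab1, H2-Eb1, B2m and Tapbp. Without overlap, 14 members were lower in cold (background 29.1%) and 7 higher (background 28.4%). The members' median was -0.19, against -0.02 over all genes.

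The mix of cells moved with this. The share of macrophages, dendritic cells and B cells together among kept cells was 22.3 and 25.3% in cold, against 43.02 and 40.8% at room temperature. Their share of all class II UMIs was 87.6 and 77.4% in cold, against 93.6 and 89.5% at room temperature. For dendritic cells alone the share of cells was 1.96 and 3.77% in cold, against 4.28 and 6.66% at room temperature, and the share of class II UMIs 27.5 and 27.4% in cold, against 30.6 and 32.7% at room temperature. The share of luminal hormone-sensing cells was 17.3 and 20.1% in cold, against 10.7 and 6.26% at room temperature, higher in both cold libraries, and they held under 1% of class II UMIs in every library. With the class shares of UMIs set to those at room temperature, cold class levels gave a log2 ratio of -0.06 for class II, against -0.92 with the cold mix. Room-temperature levels in the cold mix gave -0.86. For class I the same 3 values were -0.12, -0.24 and -0.24. These are products of mean class levels and mean UMI shares over all named, mixed and unnamed cells, with no test, so the values with the cold mix differ slightly from the ratios of measured means above.

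**Figure D4:**
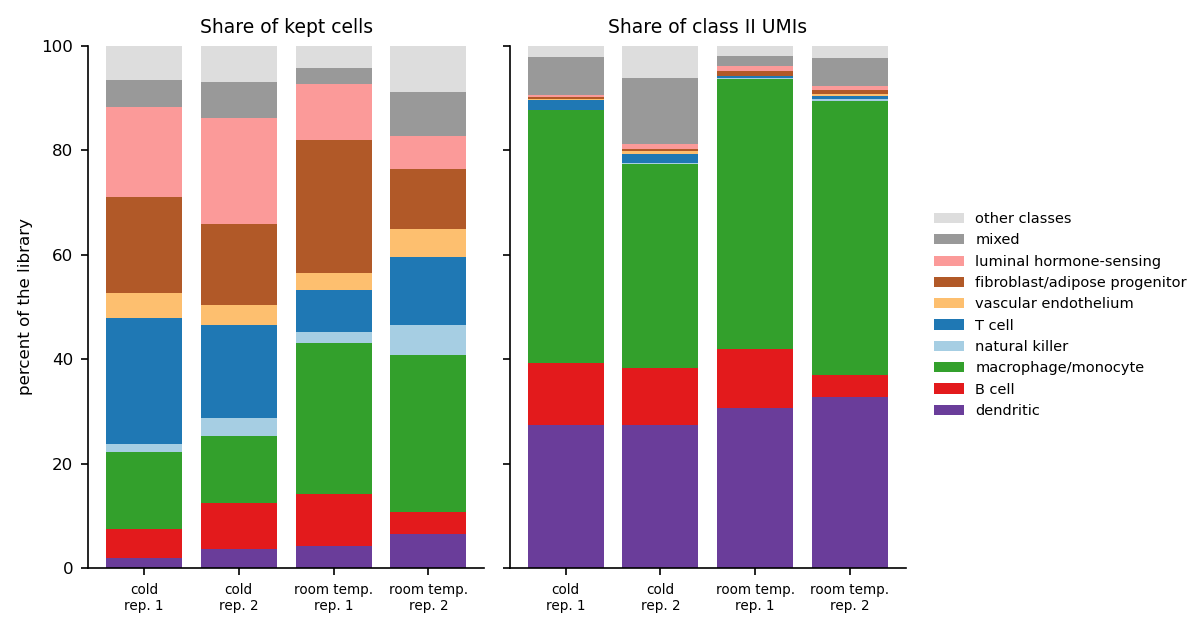
Share of kept cells (left) and share of class II UMIs (right) by cell class in each library, in percent, with the 2 cold libraries left of the 2 room-temperature libraries. The 3 lowest bands, dendritic cells, B cells and macrophages, cover 22.3% and 25.3% of cells in cold and 43.02% and 40.8% at room temperature, but at least 77.4% of class II UMIs everywhere.

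Natural killer cells were 1 of 2 classes in which members passed the test. Cd74 stood at 13.7 and 192 CPM in cold, against 648 and 651 CPM at room temperature (log2 change -2.48, SE 0.37, adjusted p = 0.00095, edgeR). H2-Aa stood at 20.6 and 61.8 CPM in cold, against 262 and 292 CPM at room temperature (log2 change -2.61, SE 0.28, adjusted p = 3.25e-05). In both genes cold replicate 1 was the lowest library. H2-Eb1 stood at 17.2 and 57.2 CPM in cold, against 234 and 214 CPM at room temperature (log2 change -2.43, SE 0.30, adjusted p = 8.1e-05). H2-Ab1 stood at 20.6 and 93.8 CPM in cold, against 239 and 249.9 CPM at room temperature (log2 change -1.93, SE 0.31, adjusted p = 0.00162). These 4 of 23 members fell in cold and none rose, where 0.836% of all genes were called lower, 0.914% higher and 1.75% in either direction. All 4 stayed called with any 1 library left out, but the size rested on cold replicate 1: the log2 fold change of Cd74 was -1.79 without it and -5.46 without cold replicate 2, and that of H2-Ab1 -1.42 and -3.48. DESeq2 called 2 of them, H2-Aa and H2-Eb1, and 0.634% of all genes. Without overlap, 6 members were lower (background 23.0%) and 5 higher (background 20.5%). The members' median was 0.05, against 0.01 over all genes. Summed class I in the same cells stood at 8649 and 9432 CPM in cold, against 9278 and 8839 CPM at room temperature, with overlap.

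The class II of natural killer cells was low and sat in few cells. Cd74 reached 1.61% and H2-Aa 1.51% of the mean in dendritic cells. The natural killer cells numbered 60 and 101 in cold and 111 and 175 at room temperature, and those with 10 or more class II UMIs numbered 0 and 1 in cold and 7 and 10 at room temperature. Their share of the class II UMIs of the class was 0 and 51.98% in cold, against 81.98 and 80.2% at room temperature. Marker genes of B cells, 7 in all, summed to 3.43 and 108 CPM in cold, against 232 and 233 CPM at room temperature, with 4 of 7 lower in cold without overlap and 1 called. Those of dendritic cells summed to 134 and 185 CPM in cold, against 199 and 215 CPM at room temperature, with 4 of 10 lower and Cd209a and Xcr1 at 0 in all 4 libraries. Those of macrophages, 11 in all, summed to 989 and 506 CPM in cold, against 910.1 and 519.5 CPM at room temperature, with overlap, 2 of 11 lower and 1 called. Their part in the calls was not tested.

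Luminal alveolar progenitors, the ductal cells that give rise to milk-secreting cells, were the other such class. Cd74 stood at 19.3 and 25.4 CPM in cold, against 185 and 88.6 CPM at room temperature (log2 change -2.63, SE 0.42, adjusted p = 0.00239, edgeR). H2-Eb1 stood at 13.5 and 17.8 CPM in cold, against 47.6 and 52.6 CPM at room temperature (log2 change -1.82, SE 0.40, adjusted p = 0.0160). Both cold libraries were lower in both genes. H2-Aa stood at 15.5 and 27.96 CPM in cold, against 71.4 and 51.2 CPM at room temperature (log2 change -1.56, SE 0.39, adjusted p = 0.0412). H2-Ab1 stood at 11.6 and 30.5 CPM in cold, against 60.8 and 52.6 CPM at room temperature (log2 change -1.56, SE 0.41, adjusted p = 0.0495). These 4 of 18 members fell and none rose, where 0.782% of all genes were called lower, 1.66% higher and 2.44% in either direction. DESeq2 called Cd74 alone (and 0.695% of all genes). Without cold replicate 1 edgeR also called Cd74 alone, with H2-Ab1 at -0.93, in a fit that called a smaller share of all genes. Without cold replicate 2, Cd74 was at -2.88, in a fit that called neither members nor other genes. The loss of calls there is thus not particular to the members. H2-Eb1 lost its call without room-temperature replicate 2 (-1.75), where a larger share of all genes was called. H2-Ab1 lost its call at the finer clustering (-1.55). Under a looser cell filter (200 genes, 25% mitochondrial UMIs) all 4 had the opposite sign, with log2 fold changes of 0.86, 1.13, 1.13 and 1.41 for Cd74, H2-Aa, H2-Ab1 and H2-Eb1, and 0 were called. Without overlap, 4 members were lower (background 18.1%) and 5 higher (background 29.7%). The members' median was -0.11, against -0.02.

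These values rested on few molecules. The alveolar progenitors numbered 110 and 66 in cold and 39 and 85 at room temperature, and their summed class II UMIs numbered 31 and 40 in cold and 138 and 354 at room temperature. Cd74 reached 0.341% of the mean in dendritic cells. Cells with 10 or more class II UMIs numbered 0 and 0 in cold and 2 and 4 at room temperature. B cell markers summed to 0 and 10.2 CPM in cold, against 103 and 24.9 CPM at room temperature, with 6 of 7 lower in cold, and macrophage markers to 116 and 83.9 CPM in cold, against 148 and 131 CPM at room temperature, with 2 of 11 lower. Dendritic markers summed to 3.87 and 55.9 CPM in cold, against 15.9 and 33.9 CPM at room temperature, with overlap. At 0 in all 4 libraries were Fcgr1, Xcr1, Clec9a and Itgax. Their part in the result was not tested.

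Summed class II was also measured among cells with under 10 class II UMIs, in the 6 classes other than dendritic cells, B cells and macrophages. The division uses the measured genes, so these values are a description. In natural killer cells it was 72.1 and 197 CPM in cold, against 278 and 307 CPM at room temperature. In T cells it was 81.8 and 108 CPM in cold, against 179 and 224 CPM at room temperature. In vascular endothelium it was 43.4 and 65.2 CPM in cold, against 110.2 and 163 CPM at room temperature. All 3 lay lower in both cold libraries. In fibroblasts it was 54.4 and 67.6 CPM in cold, against 119 and 155 CPM at room temperature. In alveolar progenitors it was 59.9 and 102 CPM in cold, against 107 and 150.1 CPM at room temperature. In hormone-sensing cells it was 33.04 and 47.1 CPM in cold, against 77.6 and 132 CPM at room temperature. These 3 also lay lower in both cold libraries. The whole-fraction class II level given above was also lower in both cold libraries, and how much of these values is free RNA was not tested.

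**Figure D5:**
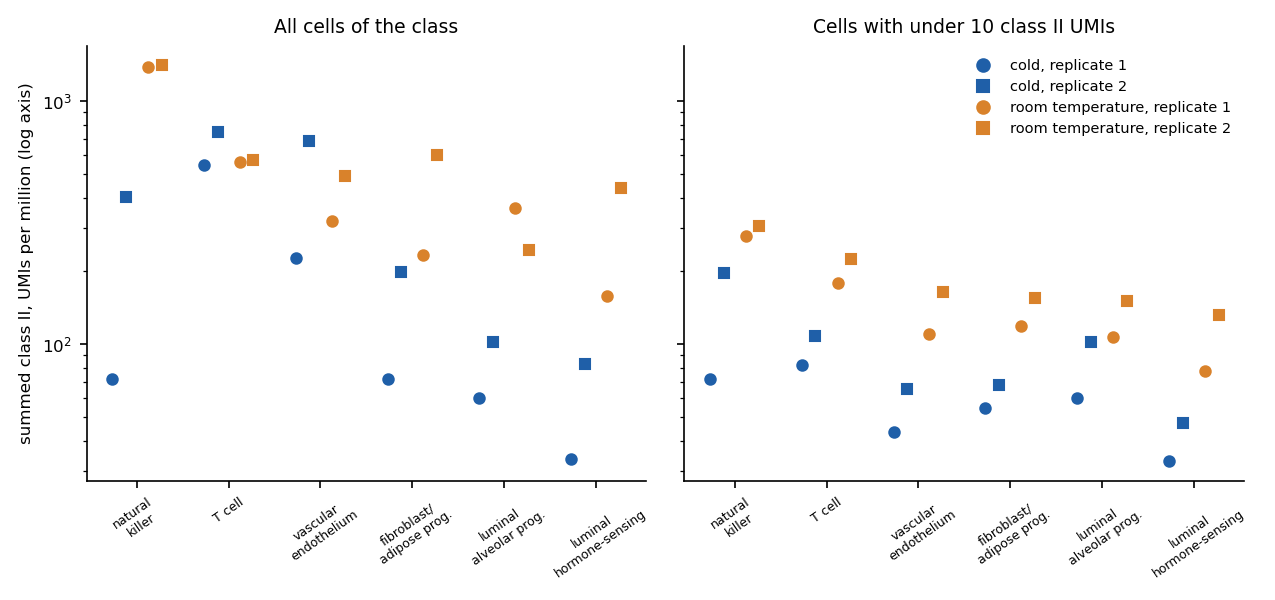
Summed class II in CPM on a log axis in the 6 classes that hold little class II, for all cells of a class (left) and for cells with under 10 class II UMIs (right), with 1 point per library. In the right panel both cold libraries lie below both room-temperature libraries in each of the 6 classes, whereas T cells and vascular endothelium overlap in the left panel.

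Fitted log2 fold changes in those cells, added after the data were seen, are values only, since the fitted genes chose the cells. For H2-Aa, H2-Ab1, H2-Eb1 and Cd74 they ran from -1.68 to -0.74, negative in all 23 values over the 6 classes. H2-Ab1 was at -1.26 in fibroblasts and -1.34 in vascular endothelium. Cd74 was at -0.91 in fibroblasts and -1.22 in vascular endothelium.

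The share of cells with a Cd74 UMI was compared after thinning each cell to 1000 UMIs. Hormone-sensing cells had 0.741 and 1.85% in cold, against 4.68 and 9.52% at room temperature, both cold libraries lower. Fibroblasts had 2.97 and 5.05% in cold, against 5.87 and 13.3% at room temperature. Natural killer cells had 0 and 9.09% in cold, against 18.02 and 14.5% at room temperature, where 0 of 60 cells in cold replicate 1 allows a share of up to 5.0% at this depth. Alveolar progenitors had 1.85 and 0% in cold, against 12.8 and 12.9% at room temperature, where 0 of 64 cells allows up to 4.69%. Such limits are for cells with a Cd74 UMI among 1000, not for cells that express the gene, and cover counting error only. T cells, at 5.0 and 11.2% in cold, against 9.91 and 11.9% at room temperature, and vascular endothelium, at 2.79 and 10.1% in cold, against 6.83 and 11.4% at room temperature, overlapped. For scale, macrophages had 75.4 and 78.98% in cold, against 76.1 and 81.1% at room temperature, and B cells at least 98.4% in every library. Before thinning, hormone-sensing cells had 24.3 and 30.8% in cold, against 50.8 and 65.6% at room temperature, at median depths of 20856 to 26054 UMIs, and natural killer cells 6.67 and 21.8% in cold, against 33.3 and 33.7% at room temperature, at 3188 to 4817 UMIs, so that cold replicate 1 had such cells.

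The make-up of the low class II signal was set beside that of the cells that make class II. In natural killer cells the share of Cd74 in the class II sum was 19.05 and 47.5% in cold, against 46.8 and 46.3% at room temperature, where cold replicate 1 held 21 UMIs in all. In macrophages it was 46.3 and 44.6% in cold, against 44.1 and 42.998% at room temperature. In dendritic cells it was 44.8 and 43.7% in cold, against 42.9 and 45.1% at room temperature. In B cells it was 53.3 and 53.4% in cold, against 51.5 and 52.3% at room temperature, the highest of the 3. Hormone-sensing cells, at 29.6 and 41.6% in cold, against 39.8 and 39.98% at room temperature, lay below all 3.

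Fibroblasts and adipose progenitors held class II chains lower in both cold libraries, and the difference from vascular endothelium was tested. In fibroblasts H2-Ab1 stood at 15.4 and 31.3 CPM in cold, against 51.4 and 117 CPM at room temperature (log2 change -1.82, SE 0.44, adjusted p = 0.0842, edgeR). Cd74 there stood at 26.6 and 92.3 CPM in cold, against 90.7 and 267 CPM at room temperature, with overlap. In vascular endothelium Cd74 stood at 115 and 341 CPM in cold, against 129 and 214 CPM at room temperature, with overlap. The cold effect in fibroblasts minus that in vascular endothelium was -1.87 (SE 0.25, adjusted p = 0.00886) for Cd74, -1.60 (SE 0.26, adjusted p = 0.0157) for H2-Ab1 and -1.61 (SE 0.30, adjusted p = 0.0260) for H2-Eb1 on the log2 scale, edgeR with the library as block. These were 3 of 28 members, against 0.978% of all genes. A further 2 of the 28 had an unadjusted p under 0.05. DESeq2 called Cd74 alone (and 0.372% of all genes). Without cold replicate 2 edgeR also called Cd74 alone (H2-Ab1 -1.21, H2-Eb1 -1.11). That fit called a smaller share of all genes than the fit of all libraries. Without room-temperature replicate 1 edgeR called H2-Aa and H2-Q4 besides these 3, along with a larger share of all genes. The difference moved with the set of cells kept, and the reason was not tested. In alternatives added after the data were seen, with doublets kept it had the opposite sign and 0 members were called, at 0.14 for Cd74, 0.58 for H2-Ab1 and 0.45 for H2-Eb1. Summed class II then had log2 ratios of -0.36 in fibroblasts and -0.57 in vascular endothelium, against -1.62 and 0.17 with doublets removed. Under the looser cell filter 0 members were called, with Cd74 at -0.87, H2-Ab1 at -0.69 and H2-Eb1 at -0.82. Among cells with under 10 class II UMIs, described above with no test, these 3 genes fell further in vascular endothelium than in fibroblasts.

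Within fibroblasts alone no member passed with edgeR (background 1.86% lower, 1.35% higher and 3.20% in either direction), 10 of 26 had an unadjusted p under 0.05, and DESeq2 called 0. Without overlap, 11 members were lower in cold (background 29.6%) and 3 higher (background 21.9%), and their median was -0.25, against 0.00037 over all genes. Without room-temperature replicate 1, H2-Aa, H2-Ab1 and H2-Eb1 were called lower and H2-Q4 higher. That fit also called a larger share of all genes. Without cold replicate 2, H2-Q7 alone was called, in a fit that called a smaller share of all genes. Without room-temperature replicate 2, H2-Ab1 alone was called, at a nearly equal share. Each of these fits leaves a single library in a group, so the 3.20% is not their background. Macrophage markers in fibroblasts summed to 99.7 and 101 CPM in cold, against 238 and 269 CPM at room temperature, with 8 of 11 lower in cold, 3 of them called. Dendritic markers summed to 11.9 and 20.1 CPM in cold, against 47.0 and 83.4 CPM at room temperature, with 6 of 10 lower and Xcr1 at 0. B cell markers overlapped, at 5.94 and 26.6 CPM in cold, against 26.5 and 74.1 CPM at room temperature, with 3 of 7 lower. Cells with 10 or more class II UMIs numbered 3 and 9 in cold and 36 and 19 at room temperature.

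In luminal hormone-sensing cells, the receptor-bearing cells of the mammary duct, class II lay lower and classical class I higher in both cold libraries, and none passed the test. H2-Aa stood at 7.72 and 18.5 CPM in cold, against 35.1 and 104 CPM at room temperature (log2 change -2.32, SE 0.62, adjusted p = 0.324, edgeR). H2-D1 stood at 1438 and 1539 CPM in cold, against 1169 and 1202 CPM at room temperature (log2 change 0.38, SE 0.14, adjusted p = 0.354). H2-K1 stood at 1569 and 1678 CPM in cold, against 1351 and 1364 CPM at room temperature, and B2m at 757 and 869 CPM in cold, against 634 and 688 CPM at room temperature. In all 4 genes the groups did not overlap. Of 27 members 0 passed, 8 had an unadjusted p under 0.05, and DESeq2 called 2, H2-Ab1 and H2-Eb1, both lower, where DESeq2 called 1.75% of all genes. edgeR called 0% of all genes lower. Without overlap, 9 members were lower (background 27.5%) and 8 higher (background 18.6%). Their median was 0.06, against -0.02. The clusters of this class differed between libraries, with the share of cluster 5 (Prlr, Wfdc2) at 68.7 and 62.9% in cold, against 15.9 and 49.5% at room temperature. Macrophage markers in this class summed to 45.1 and 44.03 CPM in cold, against 116 and 95.5 CPM at room temperature, with 8 of 11 lower in cold, and B cell markers to 1.498 and 11.3 CPM in cold, against 17.98 and 30.8 CPM at room temperature, with 7 of 7 lower. Their part in the class II values was not tested.

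In vascular endothelium and T cells no member passed with edgeR. Vascular endothelium had 3 of 25 members at an unadjusted p under 0.05 and DESeq2 called 0, with 9 lower without overlap (background 24.0%) and 3 higher (background 20%), and a median of -0.17 against -0.00052. Over all genes edgeR called 0% there with no library left out. Without room-temperature replicate 1 it called H2-M9 higher and H2-Q6, H2-Q7, Nlrc5 and Tap1 lower, and without room-temperature replicate 2 Cd74 higher. Each of these fits leaves a single room-temperature library and called many more genes over all, so the 0% is not their background. Nlrc5 and H2-T24 are named here and above after their values were seen. T cells had 5 of 28 at an unadjusted p under 0.05 and DESeq2 called 0 (background 2.09% called lower and 0.896% higher, 2.99% in all), with 3 lower without overlap (background 19.4%) and 7 higher (background 32.9%), and a median of 0.04 against 0.01. Without cold replicate 2, H2-DMa was called higher in T cells (61.8 and 55.9 CPM in cold, against 37.7 and 38.8 CPM at room temperature). That fit also called a larger share of all genes.

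H2-Q4, a non-classical class I chain, and H2-Ke6 shared a direction across cell types without passing in any. H2-Q4 was higher in both cold libraries in 8 of 9 classes, hormone-sensing cells being the exception at 63.999 and 72.99 CPM in cold, against 70.5 and 58.1 CPM at room temperature. In fibroblasts it stood at 75.8 and 66.9 CPM in cold, against 53.1 and 39.9 CPM at room temperature (log2 change 0.64, SE 0.18, adjusted p = 0.117, edgeR). In T cells it stood at 114 and 122 CPM in cold, against 105 and 96.7 CPM at room temperature (log2 change 0.15), and in vascular endothelium and macrophages the nearest libraries of the groups were almost level. H2-Ke6 was higher in both cold libraries in 6 of 9 classes. In hormone-sensing cells it stood at 82.9 and 72.8 CPM in cold, against 55.8 and 53.9 CPM at room temperature (log2 change 0.55, SE 0.14, adjusted p = 0.318, edgeR). All 9 classes come from the same 4 libraries, so they are not separate tests of this direction. The share of all genes higher without overlap in a class is given above for each class.

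Genes upstream of MHC expression were read from 5 lists. Of 14 genes that carry interferon signals to MHC genes, 3 fell in T cells and 0 rose, where 2.09% of all genes were called lower. Ifngr1, a chain of the interferon-gamma receptor, stood at 103 and 116 CPM in cold, against 268 and 238 CPM at room temperature (log2 change -1.29, SE 0.13, adjusted p = 0.00156) by edgeR. Ifnar1, of the type I receptor, stood at 56.5 and 77.5 CPM in cold, against 136 and 124 CPM at room temperature (log2 change -1.04, SE 0.15, adjusted p = 0.00715), and Ifngr2, the other interferon-gamma receptor chain, at 47.1 and 34.4 CPM in cold, against 82.9 and 67.8 CPM at room temperature (log2 change -0.94, SE 0.19, adjusted p = 0.0305). In natural killer cells 1 of the 13 tested, the transcription factor Irf8, fell to 354 and 632 CPM in cold, against 977 and 1331 CPM at room temperature (log2 change -1.18, SE 0.20, adjusted p = 0.00225), where 0.836% of all genes were called lower, and DESeq2 did not call it. The B cell marker sums that moved with it are given above. Of 8 further peptide supply genes 1 fell in fibroblasts, the chaperone Calr at 388 and 321 CPM in cold, against 643 and 840.0 CPM at room temperature (log2 change -1.01, SE 0.18, adjusted p = 0.0422), where 1.86% of all genes were called lower. Calr lost its call without cold replicate 1 (-1.19) and without cold replicate 2 (-0.84), and Ifngr2 without room-temperature replicate 1 (-0.82). In the other class and list pairs none passed, among them the RFX and NF-Y genes of the complex that Ciita and Nlrc5 work through, the lysosomal genes of class II processing and the co-stimulatory genes.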

How the data were processed

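Gene by cell tables of UMI counts, whole numbers with no scaling, were deposited by the authors, 1 per library; per the submitters' processing notes, reads were processed with Cell Ranger 3.0.2 on mm10 (GRCm38), and Seurat is also named there without a version. Sequences are RefSeq promoter windows and positions are from GENCODE vM21.

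Kept cells had 500 or more genes and less than 15% of UMIs from mitochondrial genes. Doublets were scored against simulated doublets and the highest scores removed, at 0.8% per 1000 barcodes of a library (74 to 239 cells). Cells were clustered (Leiden, resolution 1, leidenalg 0.10.2, scikit-learn 1.9.0, Python 3.11.15) on 2000 variable genes without the members, and clusters were named by at least 3 markers. Clusters whose best type led the next by under 1 log2 unit, or whose leading genes pointed to another type, were set aside. A named cluster can thus carry some markers of a further type. UMIs were summed per library and class and tested with edgeR 4.0.16 (R 4.3.3, quasi-likelihood, filterByExpr, TMM scaling, adjusted p under 0.05, 2 against 2 libraries, no block). Interactions kept the library as block. DESeq2 1.42.0, other scaling, filters, clusterings and single libraries left out were alternatives. The code was checked on simulated data.

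Replicate numbers do not pair libraries, as the labels give them no meaning and there are 2 of each. All 28 members with a mean of at least 50 CPM in a tested class are named with values in every library, and up to 3 called genes per further list. Members, markers and lists were chosen with earlier results of these data known. A 3′ UMI total of 35198164 to 55160902 per library limits rare genes, and intervals or limits from counts cover counting error only.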

Additional observations from a re-analysis of the deposited data

Results flagged for a closer look

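In the main setting the cold effect differed between fibroblasts and vascular endothelium, by the test of the difference itself, for Cd74 (-1.87), H2-Ab1 (-1.60) and H2-Eb1 (-1.61). These are log2 fold changes in fibroblasts minus those in vascular endothelium. Among cells with under 10 class II UMIs the order was the other way, with no test. There Cd74 was at -0.91 in fibroblasts and -1.22 in vascular endothelium, H2-Ab1 at -1.26 and -1.34, and H2-Eb1 at -1.16 and -1.32. With doublets kept, an alternative added after the data were seen, the sign turned (0.14, 0.58 and 0.45) and none was called, nor was any under the looser cell filter. The cause was not tested.

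For 10 members every cold library lay lower in at least 1 tested class and higher in at least 1 other. Only classes where the gene had a mean of at least 50 CPM were counted. The gap between the largest and the smallest log2 fold change of such classes is given, and none of these gaps was called by a test. Between hormone-sensing cells and macrophages it was 0.88 for B2m (0.35 and -0.53) and 0.75 for H2-K1 (0.31 and -0.44), and between hormone-sensing cells and vascular endothelium 0.55 for H2-D1 (0.38 and -0.18). These 3 differences were not tested. Between B cells and macrophages it was 0.86 for H2-T22, 0.72 for H2-T23 and 0.81 for Psmb9, and edgeR's interaction called none of the 3. Between B cells and fibroblasts it was 0.63 for Psmb8, between T cells and macrophages 0.83 for Tap1, between alveolar progenitors and fibroblasts 0.50 for Tap2, and between alveolar progenitors and macrophages 0.92 for Tapbp (0.28 and -0.65), none of them tested. With 2 libraries a group, groups fail to overlap often: the shares over all genes are given with each class above.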

How the results depend on the processing

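Counts of members called by edgeR moved under some alternatives, as did the share of all genes called, given in brackets. Without the low-count filter they were 3 in T cells (5.55%), 8 in fibroblasts (8.22%), 4 in hormone-sensing cells (0.960%), 4 in macrophages (3.63%), 2 in vascular endothelium (3.46%) and 2 in the whole fraction (2.03%), against 0 in each. DESeq2 called 1 in alveolar progenitors (0.695%) and 2 in natural killer cells (0.634%) against 4 in each, 2 in hormone-sensing cells (1.75%), 2 in macrophages (2.61%) and 10 in the whole fraction (9.10%) against 0, and 1 against 3 for the difference between fibroblasts and vascular endothelium (0.372%). The looser cell filter gave 0 in alveolar progenitors (1.97%) and 1 in vascular endothelium (1.24%), and keeping doublets gave 1 in T cells (2.85%). For the difference between fibroblasts and vascular endothelium both settings gave 0, a finer clustering 3 and clustering with the members 4, all 4 chosen after seeing the data. Leaving out members under 5% of their highest class gave 0 in natural killer cells and alveolar progenitors, since it removes the called genes. Keeping doublets reversed the difference between fibroblasts and vascular endothelium, with Cd74 at 0.14, H2-Ab1 at 0.58 and H2-Eb1 at 0.45. The looser cell filter reversed called values in alveolar progenitors: Cd74 to 0.86, H2-Aa to 1.13, H2-Ab1 to 1.13 and H2-Eb1 to 1.41. The causes were not tested. Keeping doublets moved the log2 ratio of summed class II to -0.36 against -1.62 in fibroblasts, and to -1.31 against -2.36 in hormone-sensing cells.

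Leaving out 1 library in turn kept the count of called members in natural killer cells, hormone-sensing cells and the whole fraction. The count moved in the other 6 classes and for the difference between fibroblasts and vascular endothelium. Each of these fits leaves a single library in a group, and the share of all genes called moved widely as well. Such counts are thus no result about the members. With the replicate number as block the counts were 3 in T cells (13.6%), 6 in fibroblasts (7.04%) and 3 in macrophages (5.18%, with B2m, Tap1 and Tapbp). They stayed within 1.5 times the reported count elsewhere. The numbers share only a name: deviations of same-numbered libraries correlated at -0.19 to 0.35, over 2 pairs. Of 423 alternative values, 338 stayed the same, 53 moved, 25 lost a call and 7 reversed. For single genes, staying the same means that direction and side of the threshold were kept. For counts of called members it means within 1.5 times, and for class sums and Cd74 cell shares a shift under the SD within groups. Lost calls and reversals were recorded for single genes only, so a sum that changed sign is not among the 7.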

Other observations

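Among classes too small to test, most basal cells, Schwann cells, neutrophils and pericytes held under 10 class II UMIs. In basal cells, the outer contractile layer of the mammary duct, the class II sum was 1721 and 411 CPM in cold, against 164 and 565 CPM at room temperature, but single cells carried most of it: 3 of 29 cells in cold replicate 1 held 97.4% of its UMIs. Among basal cells under 10 class II UMIs the level was 64.2 and 47.6 CPM in cold, against 84.6 and 163 CPM at room temperature. In Schwann cells that level was 145 and 71.3 CPM in cold, against 314 and 435 CPM at room temperature. In both the cold libraries lay lower, as in pericytes at 101 and 97.1 CPM in cold, against 172 and 251 CPM at room temperature. In neutrophils the groups overlapped, at 197 and 250 CPM in cold, against 245 and 544 CPM at room temperature. The looser cell filter brought Schwann and basal cells to the size needed for the test. There edgeR called 4 of 5 members in Schwann cells (10.8% of all genes) and 1 of 15 in basal cells (4.05%). Cells of the clusters set aside for markers of more than 1 type enter no class. Their share of class II UMIs was 7.25 and 12.7% in cold, against 1.98 and 5.24% at room temperature.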
